A study of Mus musculus with 2 samples.

Results

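Metabotropic glutamate receptors are the G-protein-coupled receptors for glutamate, and 7 of their genes, Grm2 to Grm8, were examined among the 55536 genes measured. They were chosen by symbol, and all 36 of their annotated transcripts were followed as well. The tissue was hippocampus, labelled a layer of it, from male B6CASTF1/J mice aged 14 days, first-generation hybrids of the C57BL/6J and CAST/EiJ strains. Total RNA was sequenced in 2 libraries, the biological replicates of 1 group, so no conditions could be compared. Each label lists 3 males of its own, without stating that 1 pool of RNA was made from them. Reads of the parental alleles are not told apart in the tables. Values are TPM, transcripts scaled to the same total in each library, and errors are SDs over n = 2 unless stated otherwise.

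In group I, mGlu5 (Grm5) couples to Gq proteins and phospholipase C, releases calcium from internal stores, and sits mainly around postsynaptic sites, tied to Homer scaffolds. The group II receptors mGlu2 (Grm2) and mGlu3 (Grm3) and the group III receptors mGlu4, mGlu6, mGlu7 and mGlu8 (Grm4, Grm6, Grm7, Grm8) couple to Gi/o proteins, lower cyclic AMP and mostly restrain transmitter release from nerve terminals. In the hippocampus, mGlu2 is known from dentate granule cells and their mossy fibres, mGlu3 from astrocytes as well as neurons, and mGlu7 from the active zones of terminals, while mGlu6 is known for the ON bipolar cells of the retina.

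The libraries held 31755576 gene counts in replicate 2 and 29144870 in replicate 1. A TPM of at least 1, called detected here, was reached by 14865 genes in both libraries. Structural RNAs (Rn7s1, Rn7s2, Rn7sk, Rpph1, mt-Rnr1 and mt-Rnr2) held 40.5% of all TPM in replicate 2 and 42.6% in replicate 1, so receptor TPM are lower than on a scale without them. Defining markers of excitatory neurons were present, with a summed level of 2899 TPM in replicate 2 and 2687 TPM in replicate 1. The libraries stood apart in other lists of markers. In replicate 2 the 5 myelin genes summed to 642 TPM, the 5 thalamic markers to 27.7 TPM, the 4 choroid plexus markers to 46.6 TPM and the 3 dentate granule cell markers to 108 TPM. In replicate 1 the same sums were 1169, 49.2, 88.4 and 76.0 TPM.

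The receptor genes are known for splice forms that change the intracellular tail of the protein, and the bases in which these forms differ are shown first because the transcript values below turn on them. All sequences are GENCODE M21 transcripts of mm10, written 5′ to 3′ in the direction of the gene. In Grm5, a cassette exon of 96 bases, or 32 codons, at chr7:88116193-88116288 (plus strand) was present in Grm5-204 and skipped in Grm5-202. The form with the exon is known as mGlu5b and the form without it as mGlu5a. Capitals mark the cassette exon and lower case 24 coding bases on either side.
Grm5-204: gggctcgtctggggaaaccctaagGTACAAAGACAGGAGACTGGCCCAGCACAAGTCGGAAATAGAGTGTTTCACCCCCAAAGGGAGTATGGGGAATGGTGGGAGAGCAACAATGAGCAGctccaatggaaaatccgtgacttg
Grm5-202: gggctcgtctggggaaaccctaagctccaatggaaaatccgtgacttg

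The group III genes share the plan of their last coding exons. Grm4, Grm7 and Grm8 each had an exon of 936 bases, then one of 247 bases, then a last piece of 47 coding bases before the stop codon. In Grm6 the matching 936 bases were split into exons of 624 and 312 bases, followed by a last piece of 195 coding bases. The sequences after the 247-base exon are given because alternative forms of Grm7 and Grm8 exchange them. Lower case marks the last 24 bases of the shared exon, and capitals mark the coding bases after its splice point with the stop codon. The capitals before the stop codon lie at chr17:27426787-27426833 (minus strand) for Grm4-201, chr6:111566018-111566064 (plus strand) for Grm7-202, chr6:27275648-27275694 (minus strand) for Grm8-201, chr6:111501510-111501577 (plus strand) for Grm7-201 and chr6:27285688-27285734 (minus strand) for Grm8-202.
Grm4-201: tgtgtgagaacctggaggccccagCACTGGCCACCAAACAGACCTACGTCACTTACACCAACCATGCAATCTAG
Grm7-202: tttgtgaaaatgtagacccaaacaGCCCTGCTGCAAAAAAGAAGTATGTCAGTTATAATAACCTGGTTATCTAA
Grm8-201: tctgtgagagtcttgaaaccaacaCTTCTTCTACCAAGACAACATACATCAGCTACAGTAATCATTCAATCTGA
Grm7-201: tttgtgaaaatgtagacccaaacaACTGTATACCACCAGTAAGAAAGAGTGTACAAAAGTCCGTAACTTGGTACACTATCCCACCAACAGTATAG
Grm8-202: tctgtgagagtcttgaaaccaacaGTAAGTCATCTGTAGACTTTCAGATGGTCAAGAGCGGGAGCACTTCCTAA

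The first 3 of these endings were of equal length, 50 bases with the stop codon. Grm4-201 matched Grm7-202 at 30 of the 50 positions and Grm8-201 at 30, and Grm7-202 matched Grm8-201 at 27. Grm7-201 instead ran into an exon of 92 bases at chr6:111501510-111501601, and Grm8-202 read on for 55 bases past the splice point used by Grm8-201.

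Grm2 had another kind of difference. Grm2-203 lacked 834 bases, or 278 codons, from inside a coding exon of 1076 bases, at chr9:106647271-106648104 (minus strand). The absent stretch began with GT and ended with AG, kept the reading frame and had a GC content of 62.4%. Capitals mark the first and the last 24 bases of the stretch, and lower case the bases around it.
Grm2-201 5' edge: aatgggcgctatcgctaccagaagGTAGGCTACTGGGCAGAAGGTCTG
Grm2-201 3' edge: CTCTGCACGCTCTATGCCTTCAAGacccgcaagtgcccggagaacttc
Grm2-203 join: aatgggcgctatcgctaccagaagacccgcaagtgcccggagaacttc

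Over whole coding sequences, the 7 pairs of genes from the same receptor group were 68.3% to 73.0% identical at aligned bases, and the 14 pairs from different groups 60.8% to 65.3%. The closest pair was Grm4 and Grm6 at 73.0%. The gene counts of all 7 had a deposited posterior SD of 0 in both gene tables.

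Grm5 was the most abundant of the receptor genes, followed by Grm3 and Grm7, then Grm2, Grm4 and Grm8, and 6 of the 7 genes were detected. Grm6 was not. Together the receptor genes summed to 211 TPM in replicate 2 and 183 TPM in replicate 1. Grm5 alone gave 50.9% of that sum in replicate 2 and 52.4% in replicate 1, a mean of 51.6% ± 1.11. The pair of group II genes gave 30.1% in replicate 2 and 24.2% in replicate 1, a mean of 27.1% ± 4.20. The 4 group III genes gave 19.1% in replicate 2 and 23.4% in replicate 1, a mean of 21.2% ± 3.09. The share of Grm5 was above that of group II and of group III in each library. On these TPM group II was above group III in both libraries, though in replicate 1 the 24.2% and 23.4% lay close together. In the kallisto-layout table, described below, group III was instead above group II in replicate 1.

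**Figure D1:**
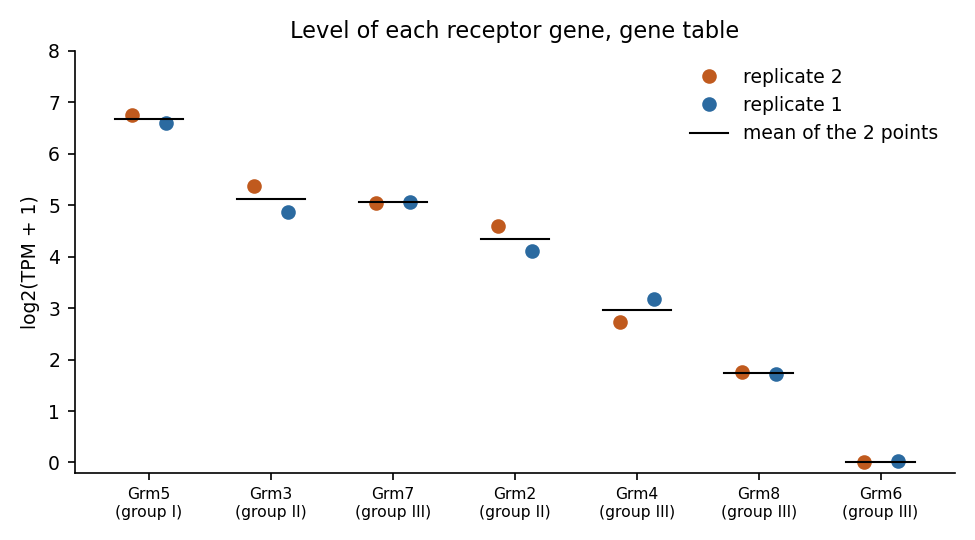
Level of each receptor gene as log2(TPM + 1), with 1 point per library, replicate 2 on the left in orange and replicate 1 on the right in blue, and a line at the mean of the points. Grm5 stands highest in both libraries at 107 and 96.0 TPM, Grm3 and Grm7 lie at like means, and Grm6 lies at 0.

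Grm5, the group I receptor, lies on chromosome 7 at 87584168 to 88134907 (plus strand, mm10) and spans 551 kb. Its level was 107 TPM in replicate 2 and 96.0 TPM in replicate 1, from 12439 and 10639 counts. The mean of 102 ± 7.91 TPM was above that of 93.6% of detected genes. Grm5 was 3.01-fold above Grm3, the next gene in order, with a mean log2 ratio of TPM of 1.59 ± 0.26. It exceeded Grm7 by 3.14-fold, Grm2 by 5.25-fold, Grm4 by 15.0-fold and Grm8 by 43.3-fold.

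Grm3, of group II, lies on chromosome 5 at 9485541 to 9725170 (minus strand, 240 kb) and has 1 annotated transcript. It had 40.3 TPM in replicate 2 and 28.1 TPM in replicate 1, a mean of 34.2 ± 8.66 TPM. Grm2, the other group II gene, lies on chromosome 9 at 106643095 to 106656082 (minus strand) in a locus of only 13.0 kb. It had 23.1 TPM in replicate 2 and 16.2 TPM in replicate 1, a mean of 19.6 ± 4.90 TPM. Both group II genes were thus higher in replicate 2, and on these TPM their ratio stayed nearly constant. Grm3 exceeded Grm2 by 0.80 on the log2 scale in both libraries, or 1.74-fold, with an SD of 0.0052. The ratio was less constant in the kallisto-layout table. There Grm3 had 56.8 TPM and Grm2 33.1 TPM in replicate 2, and 40.6 and 25.5 TPM in replicate 1.

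Grm7, the leading group III gene, lies on chromosome 6 at 110645581 to 111567230 (plus strand) and has the longest locus of the 7, 922 kb. Its level of 32.1 TPM in replicate 2 and 32.5 TPM in replicate 1 gave a mean of 32.3 ± 0.269 TPM. Its place in the order was not settled. Grm3 was above Grm7 in replicate 2 by 0.33 on the log2 scale and below it in replicate 1, with a log2 ratio of -0.21. Grm7 was above Grm2 by 0.48 in replicate 2 and 1.01 in replicate 1, a mean of 0.74 ± 0.38, which did not pass the requirement of more than 2 SD.

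Grm4 lies on chromosome 17 at 27422387 to 27521403 (minus strand, 99.0 kb) and had 5.67 TPM in replicate 2 and 8.08 TPM in replicate 1, a mean of 6.88 ± 1.70 TPM. Grm8 lies on chromosome 6 at 27275119 to 28135178 (minus strand, 860 kb) and had 2.38 TPM in replicate 2 and 2.31 TPM in replicate 1, a mean of 2.35 ± 0.0495 TPM. Grm2 exceeded Grm4 by 2.85-fold, with a mean log2 ratio of 1.51 ± 0.73, and Grm4 exceeded Grm8 by 2.89-fold, with 1.53 ± 0.39. Only 12.9% of detected genes lay below Grm8.

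Grm6 lies on chromosome 11 at 50850685 to 50866208 (plus strand) and had 0 counts in replicate 2 and 1 count in replicate 1. In replicate 2, up to 3 counts remain possible, which is 0.0945 CPM (counts scaled to the library total). Both libraries lay under 3 counts, so no fold against Grm6 is given. The single count fell in Grm6-202, a transcript annotated without a coding sequence. Of 6 genes of the mGlu6 cascade in retinal ON bipolar cells, 4 were below 1 TPM, namely Nyx at 0.36 ± 0.0849, the orphan receptor Gpr179 at 0.085 ± 0.0212, the channel Trpm1 at 0.045 ± 0.0354 and Lrit3 at 0.035 ± 0.0495 TPM. The G-protein regulators Rgs7 and Rgs11, which are not restricted to the retina, had 35.8 ± 1.66 and 27.2 ± 2.79 TPM. The 3 retinal photoreceptor markers summed to 0.22 TPM in replicate 2 and 0.39 TPM in replicate 1.

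By the rule that a pair of genes differs when its log2 ratio has 1 sign in both libraries and a mean above 0.5 and above 2 SD, 13 of the 15 pairs of detected receptor genes differed. Among neighbours in the order of levels, Grm3 with Grm7 and Grm7 with Grm2 did not. With 2 libraries an exact sign-flip test cannot go below a p of 0.5, so none is given.

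The test between the libraries asks whether a gene's counts differed beyond counting error, and compares these libraries, not conditions. Of the 6 receptor genes with enough counts, 4 passed the exact binomial test at an adjusted p under 0.05, against 22.5% of the 18332 genes tested. That share rises with depth and was 41.1% among the 5472 genes with a mean count of at least 1000, a level that Grm2, Grm3, Grm5 and Grm7 exceeded. Grm2, Grm3 and Grm5 were higher in replicate 2, where 11.9% of all genes were called, and Grm4 was lower in it, where 10.7% were called. The median log2 ratio of the 6 genes, replicate 2 over replicate 1, was 0.09, and that of all genes tested was -0.0026. When a coefficient of variation of 0.1 between libraries was assumed, edgeR's exact test called 0 of the 6 receptor genes and 0.949% of all genes. At an unadjusted p under 0.05 that test gave 2 receptor genes, Grm3 and Grm4, and 6.52% of all genes.

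Grm3 had 2556 counts in replicate 2 and 1671 in replicate 1, a log2 ratio of 0.47 with a 95% counting interval of 0.38 to 0.56, or 1.38-fold (adjusted p = 1.61e-23, exact binomial test). Grm2 had 1662 and 1155 counts, a log2 ratio of 0.38 with an interval of 0.27 to 0.49, or 1.30-fold (adjusted p = 1.45e-10, exact binomial test). In the same direction, all 3 dentate granule cell markers were higher in replicate 2, Prox1 with a log2 ratio of 0.43, C1ql2 with 0.51 and Lct with 0.33. Of the 5 astrocyte markers, Aqp4 and Slc1a3 were higher in replicate 2 by 0.40 and 0.11, Slc1a2 was lower in it with -0.05, and Gja1 and Aldh1l1 did not pass the test. The summed level of the astrocyte markers was 1497 TPM in replicate 2 and 1454 TPM in replicate 1. Other lists had genes higher in replicate 2 as well. Of the 4 inhibitory interneuron markers, Sst and Gad1 were higher by 0.50 and 0.08, and Gad2 and Slc32a1 did not pass the test. Called higher were also 2 of the 4 excitatory neuron markers and 2 of the 3 microglia markers, with 0 called lower in either list. The part of these cells in the values of Grm2 and Grm3 was not tested, and in bulk tissue fewer cells of a type and less RNA per cell cannot be told apart.

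Grm4 went the other way, with 476 counts in replicate 2 and 640 in replicate 1. Its log2 ratio was -0.57 with an interval of -0.75 to -0.40, or 1.49-fold lower in replicate 2 (adjusted p = 1.73e-09, exact binomial test). The markers of thalamus and choroid plexus, tissues that border the hippocampus, and the myelin genes were lower in replicate 2 too. All 4 thalamic markers with enough counts were called lower, with a list median of -0.89 and Tcf7l2 at 7.30 TPM in replicate 2 and 18.2 TPM in replicate 1. All 5 myelin genes were called lower, with a median of -1.18, and all 3 testable choroid plexus markers, with a median of -1.22 and Ttr at 45.8 and 85.9 TPM. Their part in the value of Grm4 was not tested.

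Grm5 differed little in size, with a log2 ratio of 0.08 and an interval of 0.04 to 0.12 (adjusted p = 0.000221, exact binomial test). Grm7 had a log2 ratio of -0.05 with an interval of -0.14 to 0.03, and Grm8 of 0.10 with an interval of -0.23 to 0.42. Neither passed the test, and for Grm8 the 175 and 148 counts of replicates 2 and 1 leave the widest interval.

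**Figure D2:**
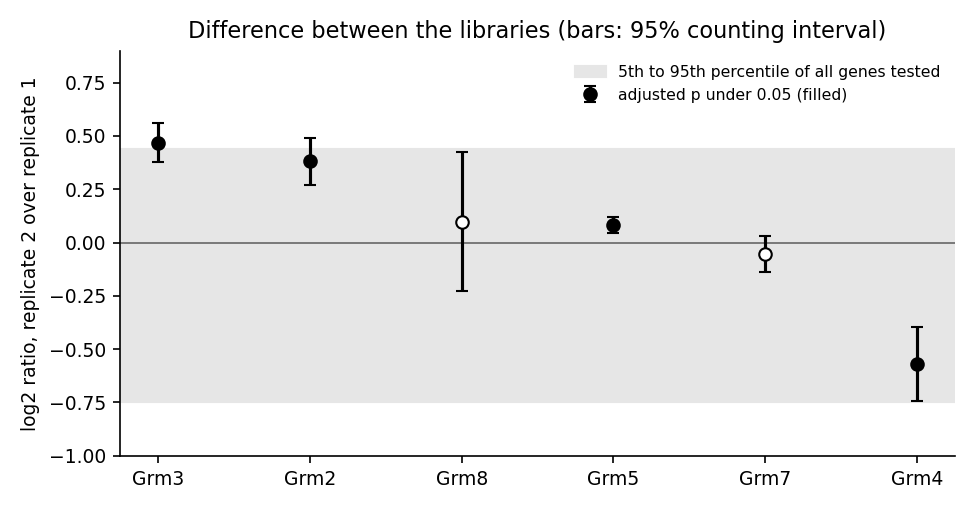
Log2 ratio of replicate 2 to replicate 1 for the 6 receptor genes with enough counts, with bars for the 95% counting interval, filled points for an adjusted p under 0.05 and a grey band from the 5th to the 95th percentile of all genes tested. The band runs from -0.75 to 0.44, and Grm3 at 0.47 is the gene whose point lies outside it.

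Transcript shares come from a table in the layout of RSEM, with a second table in the layout of kallisto set beside it. For Grm5, Grm5-202 (1171 codons, without the cassette exon) led with 46.1% of the gene's TPM in replicate 2 and 48.6% in replicate 1. Grm5-204 (1203 codons, with the exon) had 36.4% and 33.3%. Among the coding forms, the share with the cassette exon was 44.1% in replicate 2 and 40.7% in replicate 1, a mean of 42.4% ± 2.45, and 48.5% ± 1.65 in the second table. Both forms were present at comparable levels at this age, with 39.0 TPM with the exon and 49.4 TPM without it in replicate 2, and 31.9 and 46.6 TPM in replicate 1. The forms also differ after the stop codon, where Grm5-202 has 4038 bases and Grm5-204 has 785, so the shares rest on those bases as well as on the exon.

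A short noncoding transcript from the 5′ end of the locus, Grm5-205 of 551 bases, moved between the tables. It had 11.2% ± 0.502 of the Grm5 TPM in the first table and 31.0% ± 1.22 in the second, where it led. The first table gave it 120 counts in replicate 2 and 94.5 in replicate 1 over an effective length of 452 bases, and the second 234 and 213 counts, over 210 bases in replicate 1. The retained-intron transcript Grm5-206 had 3.15% ± 1.04 in the first table and 5.0% ± 0.886 in the second. All noncoding Grm5 transcripts together held 17.8% ± 0.474 of the gene's TPM in the first table and 41.6% ± 1.08 in the second.

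Grm7-202 (915 codons, the form known as mGlu7a) had 19.2 TPM in replicate 2 and 17.0 TPM in replicate 1, and Grm7-201 (922 codons, mGlu7b) had 8.75 and 10.7 TPM. The share of Grm7-201 within the pair was 31.3% in replicate 2 and 38.8% in replicate 1, a mean of 35.0% ± 5.28, and 40.4% ± 3.54 in the second table. The mGlu7a form was thus given the higher TPM in both libraries and both tables. Grm7-202 has 1163 bases after the stop codon and Grm7-201 has 71, so the share rests on those bases too. In the first table the Grm7-201 counts, 570 in replicate 2 and 656 in replicate 1, had deposited posterior SDs of 71.65 and 66.8. Grm7-204, annotated for nonsense-mediated decay, held 6.57% ± 1.68 of the gene's TPM, and the incomplete Grm7-203 held 6.18% ± 0.0919. That share of Grm7-203 rests on only 13.44 counts in replicate 2 and 13.05 in replicate 1, and was 12.2% ± 1.35 in the second table.

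For Grm8, the forms with the longer exon (Grm8-202 and Grm8-203) and the form without it (Grm8-201) code for 908 codons each but for different endings. The form with inserted bases is known in the rat as mGlu8b. The share with the longer exon was 91.4% in replicate 2 and 59.2% in replicate 1, a mean of 75.3% ± 22.8, and 71.5% ± 22.9 in the second table. The forms with the longer exon had the higher TPM in each library and table. Grm8-202 has 581 bases after the stop codon and Grm8-201 has 33, so the share rests on those bases too. The share is loosely measured, since Grm8-201 had 10.1 counts with a deposited posterior SD of 9.40 in replicate 2, and 40.4 counts with 13.4 in replicate 1. The noncoding Grm8-206 had 7.72% ± 1.18 of the gene's TPM. For the incomplete coding transcript Grm8-204 the tables differed. The first gave it 9.46% in replicate 2 and 11.02% in replicate 1, and the second 4.14% in replicate 2 and 36.6% in replicate 1, where it was the leading Grm8 transcript. The incomplete Grm8-205 had 15.0% in replicate 2 of the second table and 0 TPM elsewhere.

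**Figure D3:**
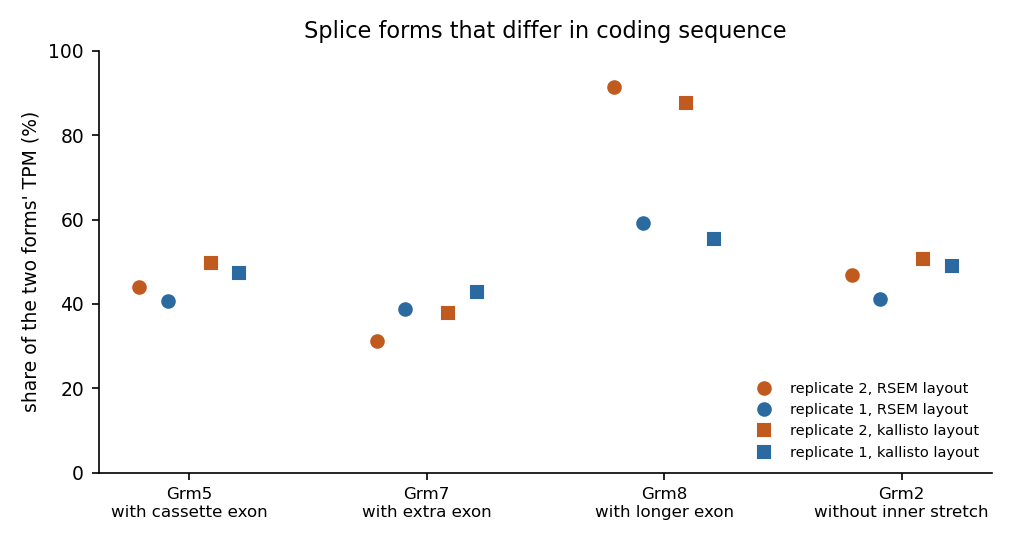
Share of one splice form in the TPM of the forms compared, in percent, for Grm5 with the cassette exon, Grm7 with the extra exon, Grm8 with the longer exon and Grm2 without the inner stretch, with circles for the RSEM layout, squares for the kallisto layout, orange for replicate 2 and blue for replicate 1. Grm8 spans 55.3% to 91.4%, and the other genes stay between 31.3% and 50.7%.

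For Grm2, Grm2-203, which lacks the inner stretch and codes for 594 codons, had 10.7 TPM in replicate 2 and 6.64 TPM in replicate 1. The full form Grm2-201 (872 codons) had 12.1 and 9.51 TPM. The share of Grm2-203 within the pair was 46.9% in replicate 2 and 41.1% in replicate 1, a mean of 44.0% ± 4.09, and 49.8% ± 1.24 in the second table. In counts its part was smaller, 27.8% in replicate 2 and 23.3% in replicate 1, as it is the shorter transcript. Grm2-201 has 1901 bases after the stop codon and Grm2-203 has 133, so the share rests on those bases too, and reads across the join are not given in the tables.

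Grm4 was dominated by Grm4-201 (912 codons), with 78.9% of the gene's TPM in replicate 2 and 78.1% in replicate 1. The second table moved part of it to Grm4-205, which has the same coding length, so that Grm4-201 had 63.1% ± 6.14 and Grm4-205 23.5% ± 4.64. In the first table Grm4-205 had 2.58% ± 3.65, the retained-intron transcript Grm4-203 had 7.60% ± 6.22 and Grm4-207 had 5.82% ± 3.64.

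**Figure D4:**
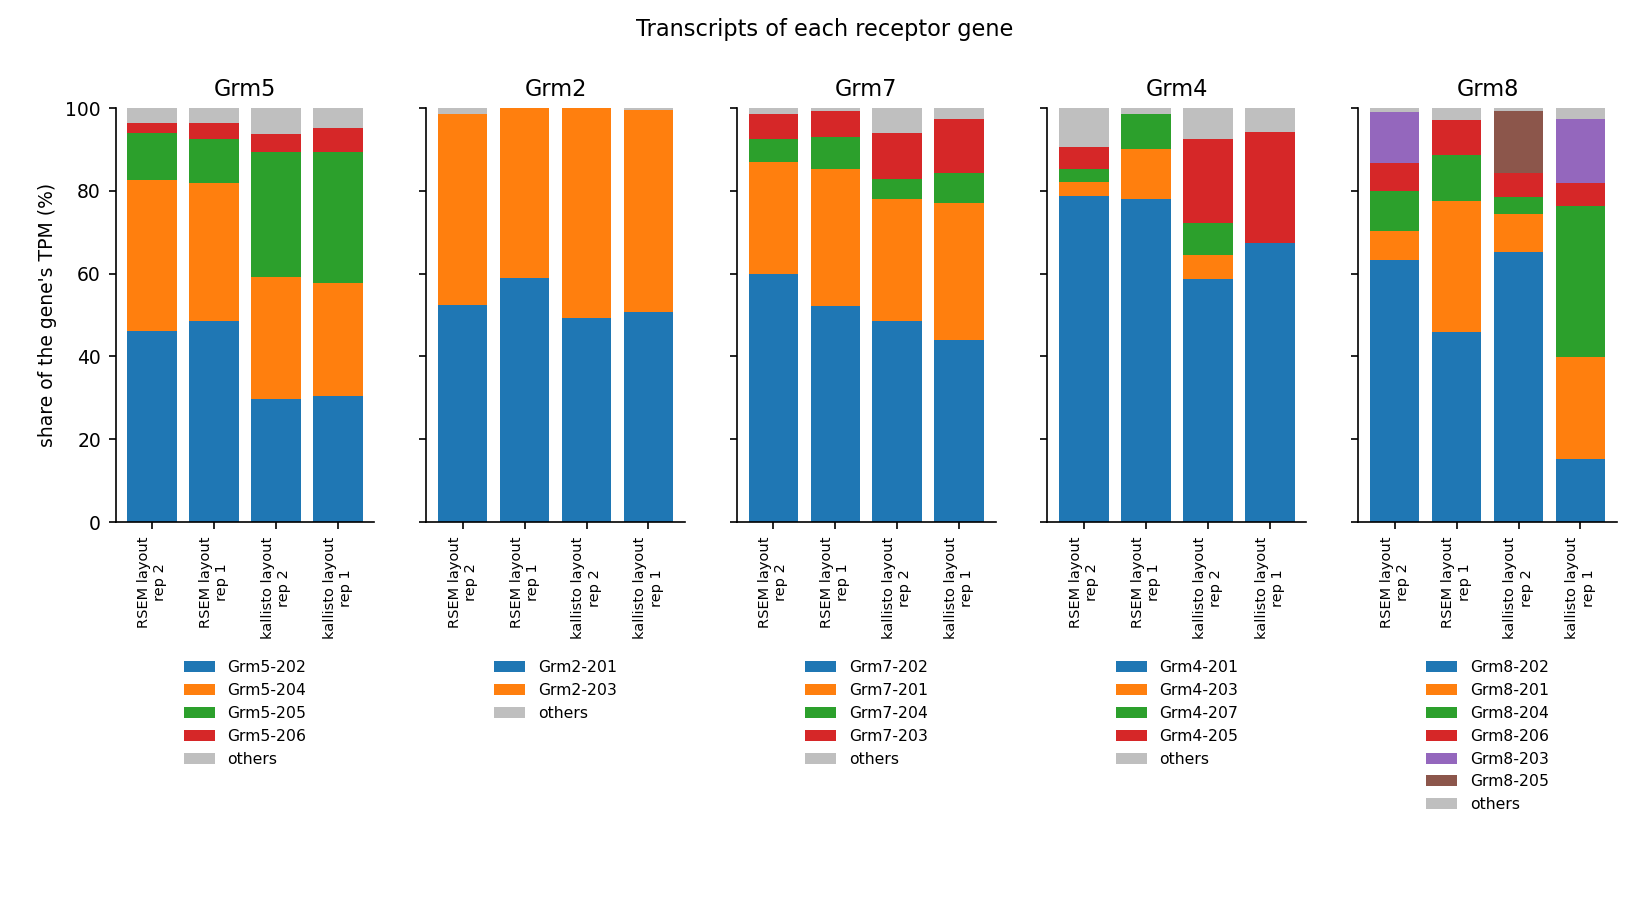
Share of each gene's TPM in its transcripts, in percent, with stacked bars for replicate 2 and replicate 1 in the RSEM layout and then in the kallisto layout; transcripts with a mean share under 5% in both tables are joined in grey. Grm5-205 takes 11.2% of Grm5 in the RSEM layout and 31.0% in the kallisto layout, while Grm4 and Grm7 keep the same leading transcript in all 4 bars.

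The receptor loci overlap 16 other annotated genes, on either strand. In Grm5, 5 genes whose annotation awaits experiment (TEC) lie on the same strand. Gm44846 had 3.29 TPM in both libraries, Gm44847 had 2.56 TPM in replicate 2 and 2.72 TPM in replicate 1, and the other 3 in Grm5 were below these. Gm20386, a processed pseudogene on the strand of Grm7, had 6.53 TPM in replicate 2 and 1.5 TPM in replicate 1, from only 5 and 1 counts. The antisense gene Gm20387 at the start of Grm7 had 2.02 TPM in replicate 2 and 2.21 TPM in replicate 1. Mir592, a microRNA gene inside Grm8, had 0 counts in both libraries, in libraries that are not made to capture mature microRNAs. Whether reads were counted by strand is not stated in the sources used here, so reads of antisense partners may not be told apart.

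Genes of the signalling path were given by lists, since receptors need them. Of the 10 Gq effectors and Homer scaffolds, the exact binomial test called 3 higher and 2 lower in replicate 2, and their median log2 ratio was 0.02. The 5 called compare with 22.5% of all genes and with 41.1% of those with a mean count of at least 1000, to which 8 of the 10 belong. The mGlu5-binding neurochondrin gene Ncdn had the highest level, 532 ± 22.4 TPM, followed by the G-protein subunit Gnaq at 91.7 ± 7.77 TPM and the scaffold Homer1 at 66.7 ± 8.26 TPM. The calcium-release channel gene Itpr1 had 59.3 ± 0.396 TPM and the phospholipase gene Plcb1 54.1 ± 0.276 TPM. Gnaq, Homer1 and Plcb3 were higher in replicate 2, with log2 ratios of 0.14, 0.16 and 0.31. Homer3 was lower with -0.30, and the phospholipase gene Plcb4 was lower with -0.84, at 7.73 TPM in replicate 2 and 14.1 TPM in replicate 1 (adjusted p = 5.43e-23, exact binomial test). Grm4, the testable thalamic markers and the myelin genes were called lower in replicate 2 as well, as were 10.7% of all genes. With 2 libraries no likeness of pattern can be measured, and the part of these markers in the value of Plcb4 was not tested.

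All 8 genes of Gi/o proteins and GIRK channels, through which groups II and III act, were detected. Gnao1, the Go subunit, had 357 ± 33.1 TPM, Gnai2 101 ± 15.1 TPM, Gnai1 75.4 ± 4.77 TPM, Gnaz 55.8 ± 6.83 TPM and the channel subunit Kcnj6 39.6 ± 0.834 TPM. The 4 G-protein genes Gnao1, Gnai2, Gnai1 and Gnaz were higher in replicate 2, with log2 ratios of 0.09, 0.22, 0.08 and 0.19, and none of the 8 was called lower. All 8 had a mean count of at least 1000, so 4 of 8 called is near the 41.1% of all genes at that depth.

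Among 15 regulators and partners of the receptors, the same test called 7 higher and 3 lower in replicate 2. Their median log2 ratio was 0.11. The 10 called compare with 22.5% of all genes and with 41.1% of those with a mean count of at least 1000, which 10 of the 15 reached. The Arf exchange factor Cyth2 had 79.0 ± 5.41 TPM, the postsynaptic adhesion gene Elfn2 74.9 ± 4.68 TPM, the G-protein regulator Rgs4 72.4 ± 2.04 TPM, the receptor kinase Grk2 65.6 ± 3.66 TPM and the arrestin Arrb1 63.4 ± 4.81 TPM. Elfn1, whose protein recruits mGlu7 across the synapse, had 17.7 TPM in replicate 2 and 12.5 TPM in replicate 1, a log2 ratio of 0.38 (adjusted p = 7.94e-07, exact binomial test). Its presynaptic partner gene Grm7 had a log2 ratio of -0.05. The others higher in replicate 2 were Cyth2, Elfn2, Grk2, Arrb1, the arrestin Arrb2 and the scaffold Grasp, with log2 ratios of 0.08 to 0.19. Necab2, Grk3 and Folh1, the peptidase that cleaves the mGlu3 ligand NAAG, were lower in replicate 2, with -0.25, -0.22 and -0.41.

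**Figure D5:**
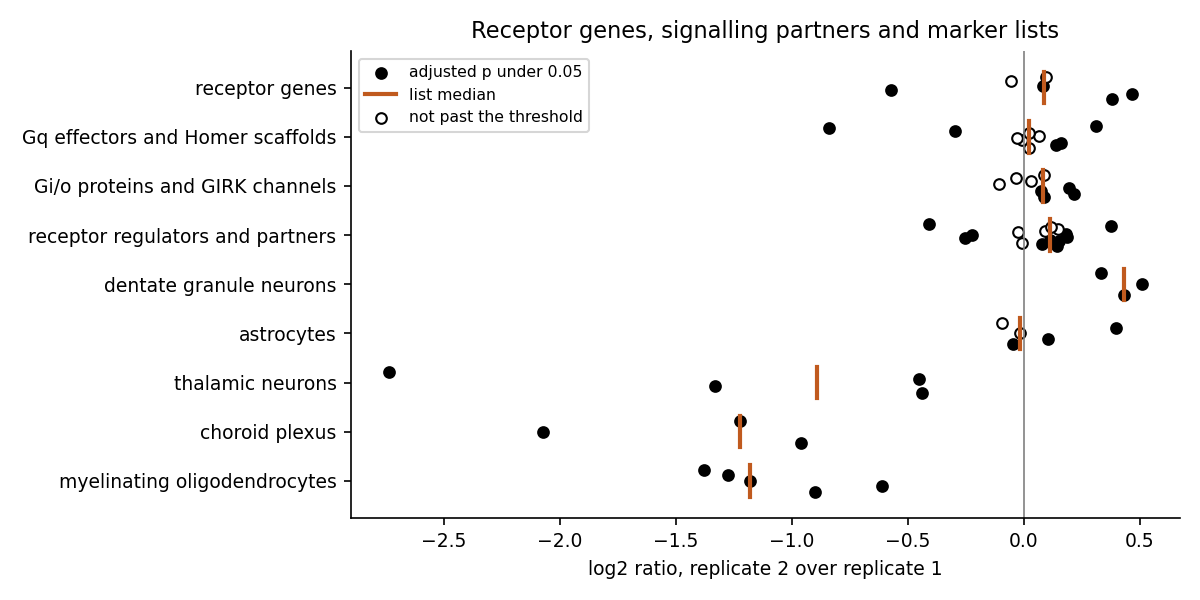
Log2 ratio of replicate 2 to replicate 1 for each gene with enough counts, by list, with filled points for an adjusted p under 0.05, open points for genes not past the threshold and an orange line at the median of the list. The receptor genes lie between -0.57 and 0.47 around a median of 0.09, the dentate granule cell markers lie on the right and the thalamic, choroid plexus and myelin markers on the left.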

How the data were processed

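Each library came with a gene table and a pair of transcript tables, 1 in the layout of RSEM and 1 in that of kallisto, per the file headers. The expected counts deposited by the authors are estimated reads without normalisation. The TPM deposited by the authors are scaled to a fixed total per table, in the RSEM-layout tables with the spike-ins in it. Each transcript's percent of its gene was deposited too, along with scores for the posterior SD of a count and for the bounds of TPM. Build mm10 is named in the labels, and GENCODE M21 in notes that accompany the tables. The versions and settings of the aligner and quantifiers are not given in the sources used. The 26248 entries that carried a number only (2.67e-05% of the counts of replicate 1) did not enter gene totals. Nor did the 97 spike-in entries, picked by an ERCC or phiX name.

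Expected counts were rounded for the test, library sizes were scaled by TMM (edgeR 4.0.16, limma 3.58.1, R 4.3.3), and genes with a mean count under 10 were not tested. Log2 ratios had a prior count of 0.5. An exact two-sided binomial test was adjusted by Benjamini-Hochberg over all genes tested, with a threshold of 0.05, after a trial on simulated data. The p-values measure departure from counting error between these libraries, and the test estimates no spread between replicates. Intervals and limits (3 counts for a 0) reflect counting error alone. They treat each read as a separate draw, though reads are not separate molecules, so they may be too narrow. Alternatives used DESeq2 1.42.0 size factors, library totals, spike-in totals, other filters, the kallisto-layout table, other TPM scales and each library left out. Coding sequences were aligned with Biopython 1.88 (match 2, mismatch -1, gap opening -5, gap extension -0.5). Python 3.11.15 was used with scipy 1.17.1, numpy 2.4.6, pandas 2.3.3 and, for figures, matplotlib 3.10.9.

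The members and lists were chosen with earlier results of these data known. The text names all 7 receptor genes, their transcripts with a mean share of at least 5% in either table or leading in a library, and, from each pathway list, up to 5 genes of the highest mean TPM, those under a mean TPM of 1 and those past the test. Marker genes named beside a result were chosen after their values were seen.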

Additional observations from a re-analysis of the deposited data

How the results depend on the processing

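Of the receptor genes, 4 passed the exact binomial test under DESeq2 size factors, library totals, spike-in totals, kallisto-layout counts, no filter on counts and a mean count of at least 50, and each of the 6 log2 ratios kept its side of the threshold there. When edgeR assumed a coefficient of variation of 0.1, its exact test called 0 of them. Of all genes it called 174, with 29.9% of these higher in replicate 2, where the binomial test called 4129, with 52.7% higher. Spike-in totals gave 6516 genes, 84.7% of them higher in replicate 2, as the median log2 ratio moved to 0.11; Grm7 then had a log2 ratio of 0.06 in place of -0.05, both short of the threshold. The number of receptor genes detected was 6 in each alternative run except a limit of 5 TPM, which left 5. In the main run 3 of the 5 neighbouring pairs with a ratio were called different. Neighbours called different numbered 5 in the kallisto-layout table and 3 to 5 with a library left out. Each count of 5 includes Grm8 with Grm6, a pair without a ratio in the main run and with Grm6 under 3 counts. With a library left out, the rule asked only for a log2 ratio above 0.5, so these counts are not like for like. Without replicate 2 and in the kallisto-layout table Grm7 stood above Grm3. Group I held 59.7%, group II 21.6% and group III 18.7% of the summed TPM in the kallisto-layout table. In its replicate 1, however, group III summed to more than group II. Grm7 had 52.2, Grm4 11.4 and Grm8 4.74 TPM there, against 40.6 for Grm3 and 25.5 for Grm2. In shares of expected counts, which also follow transcript length, group I held 63.7%, group II 19.2% and group III 17.1%. Rescaling TPM to protein-coding genes moved Grm5 to 214 TPM and Grm3 to 71.9 TPM. The cause of these moves was not tested unless stated. No test between the libraries can be made with 1 left out. No paired analysis was possible because there is 1 group. Grm8 and Grm6 are limited by depth.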
